A study of Mus musculus with 12 samples.

Results

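Cadherins, claudins and desmosomal proteins hold neighbouring cells together. The genes described here are 10 of that kind: Cdh1 and Cdh2 (E- and N-cadherin, the calcium-dependent adhesion proteins of adherens junctions), Epcam (a cell surface adhesion protein of epithelial cells), the claudin genes Cldn3, Cldn4, Cldn6 and Cldn7 (membrane proteins that form the strands of tight junctions), Dsg2 (desmoglein 2, a desmosomal cadherin), Dsp (desmoplakin, which ties desmosomes to keratin filaments) and Ocln (occludin, another membrane protein of tight junctions). They were chosen by name, with all probes that the platform annotation gives to them. A named probe was found for 7 of the 10, with 11 probes among the 45281 on each array, and 10 of the 11 were detected often enough to be tested. Epcam, Dsp and Ocln had no probe named here and were not analysed.

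The arrays were Illumina bead arrays, which report the brightness of labelled RNA bound to a probe, and the study compared murine iPS cells (induced pluripotent stem cells) derived with the human or the mouse form of Nanog with 2 other cell types. There were 4 groups of 3 arrays: hNanog iPS cells (human Nanog), mNanog iPS cells (mouse Nanog), ES cells (embryonic stem cells) and NS cells, which the labels call nanog-null neural stem cells. E14Tg2A (129) is the strain given for all 12. The iPS and ES cells grew in N2B27 medium with LIF, 3 µM CHIR99021 (an inhibitor of GSK3) and 1 µM PD0325901 (an inhibitor of MEK), and no medium is stated for the NS cells. The labels do not say how the Nanog genes were delivered, how many iPS clones were sampled or whether replicates were separate cultures. The p-values therefore measure only the spread between these samples, and the form of Nanog cannot be told apart from the iPS clone that carried it. The comparisons with NS cells share the NS arrays, and both comparisons with ES cells share the ES arrays.

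E-cadherin is the main adhesion molecule of early embryonic and mouse ES cells, and is known for the compact, domed shape of their colonies. Neuroepithelial cells give up E-cadherin for N-cadherin during the formation of the neural tube. Epithelial junction genes are known to be repressed by the zinc finger factors of the Snail and Zeb families, which bind the E-box CAGGTG, and activated by Grainyhead-like factors, which bind AACCGGTT.

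Cldn3 and Cldn6 differed between the pluripotent groups below and Cldn4 did not pass the test there, so the stretches upstream of these 3 genes are shown. They are the 250 bases before the RefSeq start site, in GRCm38.p6, written 5′ to 3′ on the strand of the gene, for Cldn3 (chr5:134985964-134986213, plus strand), Cldn4 (chr5:134946935-134947184, minus strand) and Cldn6 (chr17:23679115-23679364, plus strand). Capitals mark the E-box CAGGTG on either strand, where it reads CACCTG on the other.
Cldn3: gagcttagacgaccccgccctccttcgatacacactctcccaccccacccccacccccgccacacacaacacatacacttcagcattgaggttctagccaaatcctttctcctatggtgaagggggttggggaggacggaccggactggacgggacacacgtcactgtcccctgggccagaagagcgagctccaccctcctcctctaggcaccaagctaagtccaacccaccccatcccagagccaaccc
Cldn4: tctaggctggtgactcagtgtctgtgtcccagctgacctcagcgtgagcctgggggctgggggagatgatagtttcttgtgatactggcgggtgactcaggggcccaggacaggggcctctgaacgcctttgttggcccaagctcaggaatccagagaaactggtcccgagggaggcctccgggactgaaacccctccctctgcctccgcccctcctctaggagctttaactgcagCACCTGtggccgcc
Cldn6: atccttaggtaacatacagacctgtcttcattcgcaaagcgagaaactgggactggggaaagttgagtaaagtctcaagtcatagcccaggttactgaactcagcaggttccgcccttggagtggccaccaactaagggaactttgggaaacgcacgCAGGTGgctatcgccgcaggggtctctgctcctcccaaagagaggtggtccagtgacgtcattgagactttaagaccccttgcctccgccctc
A match lay at base -14 from the start in Cldn4 and another at base -93 in Cldn6, and there was none in the window of Cldn3. Of the other members searched, Epcam, the second start site of Cldn7 and the first of Ocln held 2 matches each. Dsp, the first start site of Cldn7 and the second of Ocln held none. The E-box occurs in 17.2% of the 32851 promoter windows of this length in the RefSeq table. The Grainyhead motif AACCGGTT occurs in 0.116% of them and in none of the windows of the 7 junction genes that were searched. Cdh1, Cdh2 and Dsg2 are named only. Cldn3 and Cldn4 lie on 1 chromosome with 0 protein-coding genes between them, as do Cldn6 and Cldn9, and Cdh1 and Cdh3.

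Before the results, the arrays themselves: 6 were brighter, with mean signals of 470 to 562, and 6 were dimmer, with 317 to 332. Of the 3 arrays in each group, 2 were brighter for hNanog iPS, 1 for mNanog iPS, 1 for ES and 2 for NS, so each group held both kinds. In a comparison within 1 kind of array, a group can therefore hold a single array, which the fit assumes to vary like the other groups. Both groups hold 1 for mNanog iPS minus ES on brighter arrays. Levels below are log2 intensities after background correction and quantile normalization, a difference is the first group named minus the second, and errors of levels are SD with n = 3. A probe was called detected on an array at a detection p-value under 0.01. Where no array of a group detected it, only a bound can be given, taken from the dimmest signal that was detected on those arrays, and it is written as "at least" a fold. The labelled cell types were checked with marker genes. All 5 pluripotency markers were detected in hNanog iPS, mNanog iPS and ES cells, against 1 of 5 in NS cells. Of the 4 neural stem markers with a probe, 1 was detected in hNanog iPS, 1 in mNanog iPS and 2 in ES cells, against 4 in NS cells. Both Nanog probes were detected on all arrays of the 3 pluripotent groups and on none of the NS arrays. Their levels were not alike in the pluripotent groups. ILMN_1245732 averaged 7.08 in hNanog iPS, 12.31 in mNanog iPS and 11.61 in ES cells. ILMN_2706623 averaged 11.03, 11.46 and 13.04 in those groups.

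By its transcript probe, E-cadherin was high in all 3 pluripotent groups and not detected in NS cells, and no difference among the pluripotent groups passed the test. The Cdh1 probe ILMN_2628629 read 10.18, 10.13 and 9.90 on the hNanog iPS arrays. It read 9.96, 9.89 and 10.32 in mNanog iPS cells and 10.24, 10.18 and 10.15 in ES cells. In NS cells it read 4.69, 4.67 and 4.76 and was detected on no array. The 3 pluripotent groups overlapped, and all 9 of their arrays lay far above the NS arrays. In hNanog iPS cells, Cdh1 exceeded the NS level at least 28.8-fold (limma, adjusted p = 6.5e-13). The bound was 28.5-fold in mNanog iPS cells (adjusted p = 6.7e-13) and 31.2-fold in ES cells (adjusted p = 5e-13). In a bulk culture, fewer cells of a type and less RNA per cell cannot be told apart.

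Among pluripotent cells, Cdh1 differed by -0.12 in hNanog iPS minus ES cells (95% interval -0.37 to 0.14, limma adjusted p = 0.52). For mNanog iPS minus ES cells the difference was -0.13 (interval -0.38 to 0.12, adjusted p = 0.43), and for hNanog minus mNanog iPS cells it was 0.01 (interval -0.24 to 0.27, adjusted p = 0.96). None of the 3 differences passed the test, and the intervals leave room for changes of up to 0.38 on the log2 scale. The other Cdh1 probe, ILMN_1227162, is dim and is annotated to a cDNA clone. It averaged 5.45 ± 0.26 in hNanog iPS, 5.39 ± 0.34 in mNanog iPS, 5.99 ± 0.31 in ES and 5.08 ± 0.36 in NS cells, and was detected on 1, 0, 3 and 1 of those arrays. Of its 6 comparisons, ES minus NS alone passed (0.90, limma adjusted p = 0.0028), and this call was lost under median scaling (0.64). Without passing, the probe averaged lower than in ES cells in hNanog iPS (-0.54, interval -1.03 to -0.05, limma adjusted p = 0.1). The same held in mNanog iPS cells (-0.59, interval -1.08 to -0.10, adjusted p = 0.062). It also read higher on dimmer arrays, by 0.50 (adjusted p = 0.0034). With array brightness as a block it also passed in hNanog iPS minus ES (-0.37, adjusted p = 0.028), mNanog iPS minus ES (-0.59, 0.0012) and hNanog iPS minus NS (0.36, 0.0091). The block was not the only such setting. Of 25 alternatives, 7 gave a call in mNanog iPS minus ES, among them brighter arrays alone, which hold 1 array of each group. In hNanog iPS minus ES 2 did so, and in hNanog iPS minus NS 3. The brightness block gave no call among pluripotent groups for ILMN_2628629, so only the dim Cdh1 probe was called there. In the main fit both probes averaged below ES cells in both iPS groups, with intervals that overlap. A call in 1 probe alone does not show that the 2 probes differ.

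Claudin 4, like E-cadherin, was high in every pluripotent group and not detected in NS cells. Cldn4 read 11.17, 11.22 and 11.20 in hNanog iPS cells. It read 11.30, 11.17 and 11.28 in mNanog iPS cells and 11.12, 11.18 and 11.15 in ES cells. In NS cells it read 4.38, 4.73 and 4.38. The 3 pluripotent groups overlapped and lay far above the NS arrays. Against NS cells the bound was 62.7-fold for hNanog iPS (limma adjusted p = 3.4e-14), 65.1-fold for mNanog iPS (2.8e-14) and 60.8-fold for ES cells (3.2e-14). Cldn4 differed from ES cells by 0.04 in hNanog iPS (interval -0.17 to 0.26, adjusted p = 0.79) and by 0.10 in mNanog iPS cells (interval -0.12 to 0.31, adjusted p = 0.5). hNanog minus mNanog iPS cells gave -0.05 (interval -0.27 to 0.16, adjusted p = 0.79).

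**Figure D1:**
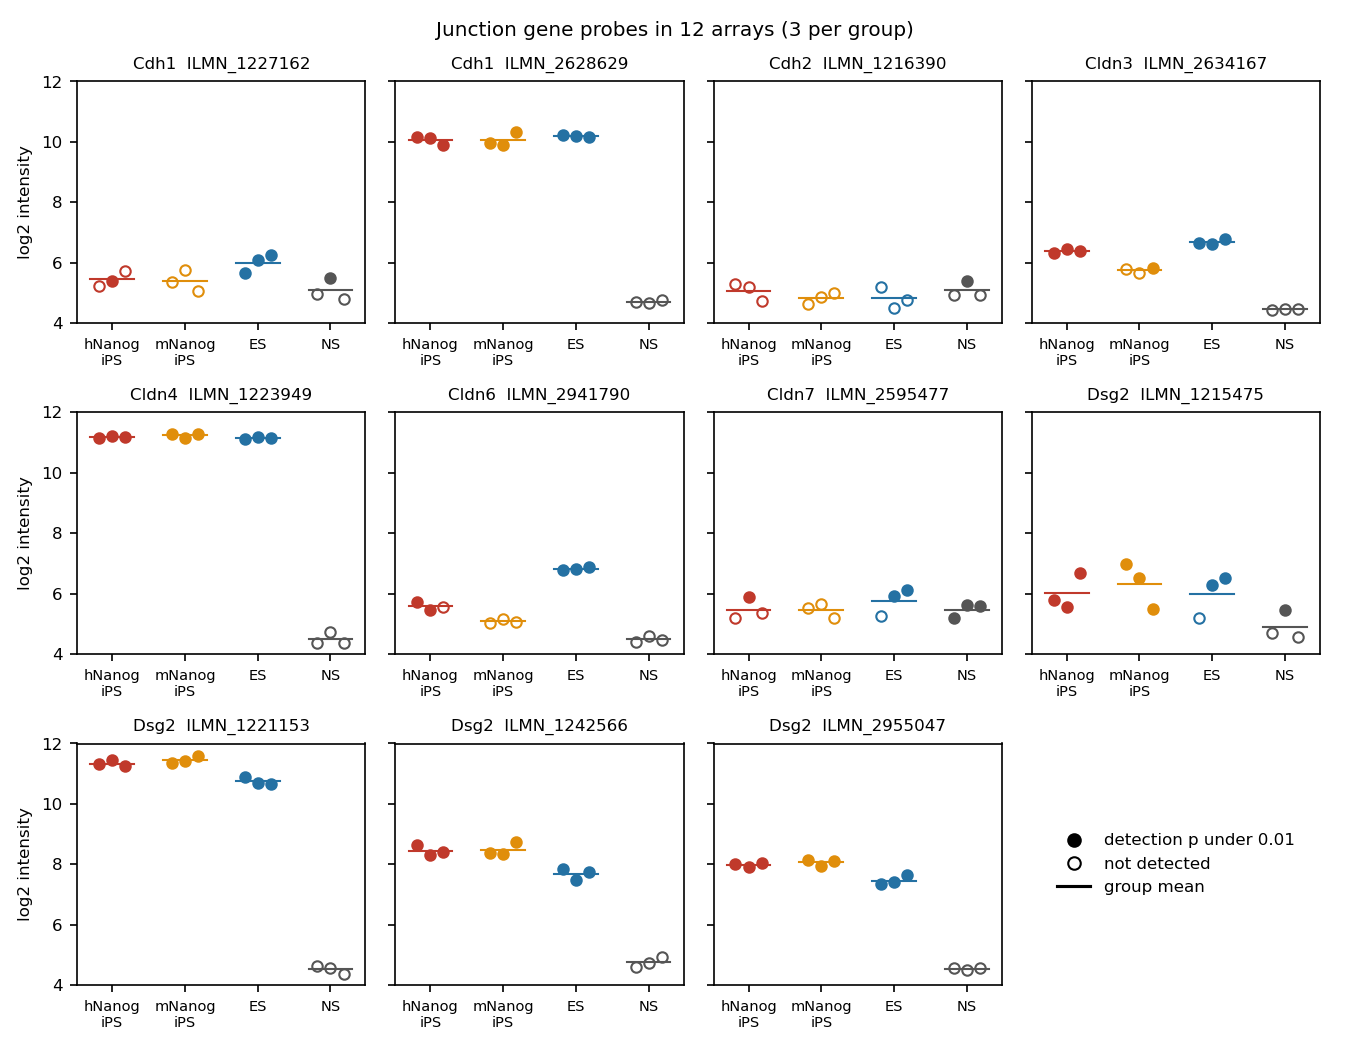
Normalized log2 intensity of each member probe on each array, by group, with hNanog iPS, mNanog iPS, ES and NS from left to right; points are arrays and bars are group means. Cdh1 ILMN_2628629, Cldn4 and 3 of the 4 Dsg2 probes stand high in the 3 pluripotent groups and near background in NS cells, while Cldn3 and Cldn6 stand highest in ES cells. The other Cdh1 probe, ILMN_1227162, is dim in every group.

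Desmoglein 2 was high in all pluripotent groups and higher in both iPS groups than in ES cells. The Dsg2 probe ILMN_1221153 read 11.32, 11.44 and 11.24 in hNanog iPS cells. It read 11.34, 11.41 and 11.60 in mNanog iPS cells, and 10.88, 10.70 and 10.65 in ES cells. NS cells, where it was not detected, read 4.64, 4.55 and 4.38. Every iPS array lay above every ES array, and the iPS groups overlapped. Dsg2 rose by 0.59 (SE 0.11) in hNanog iPS against ES cells (limma adjusted p = 0.0015), and by 0.71 in mNanog iPS against ES cells (adjusted p = 0.00028). The difference between hNanog and mNanog iPS cells was -0.12 (interval -0.35 to 0.11, adjusted p = 0.54).

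A further 2 Dsg2 probes gave the same order. ILMN_1242566 averaged 8.45 ± 0.18 in hNanog iPS, 8.49 ± 0.22 in mNanog iPS, 7.69 ± 0.18 in ES and 4.76 ± 0.17 in NS cells. ILMN_2955047 averaged 7.98 ± 0.07, 8.06 ± 0.12, 7.46 ± 0.16 and 4.54 ± 0.04 in those groups. In both, hNanog iPS exceeded ES cells, by 0.77 (limma adjusted p = 0.0017) and 0.52 (0.0022), as did mNanog iPS cells, by 0.80 (0.00095) and 0.60 (0.00059). The 3 probes share 1 gene and are not independent replicates. Their bounds against NS cells ran from 6.76-fold to 69.0-fold in hNanog iPS, from 7.15-fold to 74.8-fold in mNanog iPS, and from 4.72-fold to 45.8-fold in ES cells.

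Within each kind of array, the ILMN_1221153 difference of hNanog iPS minus ES was 0.50 on brighter arrays and 0.57 on dimmer arrays, neither past the threshold. The difference of mNanog iPS minus ES was 0.73 on brighter arrays (1 array each) and 0.70 on dimmer arrays. Median scaling in place of quantile normalization gave 0.80 for hNanog iPS (limma adjusted p = 0.27) and 0.63 for mNanog iPS (0.48), which ended both calls, and it ended the calls of the other 2 probes as well. The fourth probe, ILMN_1215475, was dim and varied with array brightness: its dimmer arrays read higher by 1.07 (adjusted p = 1e-04). It averaged 6.02 ± 0.60 in hNanog iPS, 6.33 ± 0.75 in mNanog iPS, 5.99 ± 0.71 in ES and 4.91 ± 0.47 in NS cells, and did not pass in any comparison among pluripotent groups. It passed against NS cells in hNanog iPS (1.11, adjusted p = 0.036), mNanog iPS (1.42, 0.011) and ES cells (1.09, 0.039). The hNanog iPS call was lost without hNanog iPS replicate 3 (0.77), NS replicate 1 (1.01) or NS replicate 3 (0.94). The ES call was lost without ES replicate 2 (0.94), ES replicate 3 (0.83), NS replicate 1 (0.98) or NS replicate 3 (0.92).

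Claudins 3 and 6 ran the opposite way to Dsg2, lower in both iPS groups than in ES cells. Cldn6, a claudin known from embryonic tissue, read 5.72, 5.46 and 5.57 in hNanog iPS cells. It read 5.02, 5.17 and 5.07 in mNanog iPS cells and 6.79, 6.81 and 6.88 in ES cells. NS cells read 4.41, 4.58 and 4.45. No group overlapped another, with ES highest, then hNanog iPS, mNanog iPS and NS cells. The probe was detected on 2 hNanog iPS arrays, 0 mNanog iPS arrays, 3 ES arrays and 0 NS arrays, so the level in mNanog iPS and NS cells is only known to be near background.

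Cldn6 fell by 1.24 (SE 0.09) on the log2 scale in hNanog iPS against ES cells (limma adjusted p = 1.2e-06). It was at least 2.31-fold lower in mNanog iPS than in ES cells (adjusted p = 3.4e-08). On brighter arrays alone hNanog iPS minus ES was -1.20, and on dimmer arrays alone -1.28. No fold beyond the bound is given for mNanog iPS cells, since no array of that group detected the probe. hNanog iPS exceeded mNanog iPS cells by 0.50 (adjusted p = 0.0029), a difference with no lower bound above 1-fold, and the call was lost under 6 alternatives. These were no background correction (0.22, adjusted p = 0.053), median scaling (0.53, 0.67), cyclic loess (0.39, 0.11), the authors' processed values (0.11, 0.13), and brighter (0.53) or dimmer (0.48) arrays alone. Against NS cells, the bound for Cldn6 was 1.28-fold higher in hNanog iPS cells (adjusted p = 2.2e-07) and 3.04-fold higher in ES cells (1.4e-10).

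Claudin 3 showed the same order of groups, with smaller differences from ES cells. Cldn3 read 6.32, 6.44 and 6.38 in hNanog iPS cells. It read 5.78, 5.67 and 5.81 in mNanog iPS cells and 6.64, 6.61 and 6.77 in ES cells. NS cells read 4.42, 4.47 and 4.46. The groups did not overlap, and the probe was detected on 3, 1, 3 and 0 arrays of those groups. Cldn3 fell by 0.92 in mNanog iPS against ES cells (limma adjusted p = 3.3e-06), with -0.83 on brighter and -0.97 on dimmer arrays alone, though not under median scaling (-0.84, adjusted p = 0.11). It fell by 0.29 in hNanog iPS against ES cells (adjusted p = 0.019), a call lost without hNanog iPS replicate 1 (-0.26), without ES replicate 3 (-0.24) and, among other settings, under median scaling (-0.07, adjusted p = 0.99) and on brighter (-0.26) or dimmer (-0.31) arrays alone. hNanog exceeded mNanog iPS cells by 0.63 (adjusted p = 0.00023), or 0.57 on brighter arrays and 0.66 on dimmer arrays, the dimmer value not past the threshold. Median scaling gave 0.78 (limma adjusted p = 0.34). Against NS cells, the bounds were 2.23-fold in hNanog iPS (3.1e-10), 1.44-fold in mNanog iPS (1.4e-08) and 2.73-fold in ES cells (7.9e-11).

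Markers of other cells also differed between these groups. Of the 5 trophectoderm markers 3 had a probe, and their summed linear intensity was 99.2 to 117 in hNanog iPS, 98.6 to 112 in mNanog iPS, 239 to 305 in ES and 66.6 to 70.5 in NS cells. Cdx2, a transcription factor of trophectoderm, averaged 7.80 ± 0.19 in ES cells and was detected in no other group. Eomes, another such factor, ran the other way, at 5.61 ± 0.19 in hNanog iPS and 5.02 ± 0.28 in mNanog iPS, against 4.52 ± 0.18 in ES cells. It was higher than in ES cells in hNanog iPS (limma adjusted p = 0.00017) and mNanog iPS cells (0.021), and was detected on 2, 1 and 0 arrays. Of the 6 fibroblast markers 3 had a probe, and their sum was 68.7 to 84.0 in hNanog iPS, 411 to 488 in mNanog iPS, 67.5 to 75.0 in ES and 101 to 116 in NS cells. Col1a1, a collagen of fibroblasts, averaged 8.14 ± 0.08 in mNanog iPS cells and was detected in no other group. The primitive endoderm list, with 3 of 5 genes measured, summed to 1085 to 1358 in hNanog iPS, 1043 to 1124 in mNanog iPS, 1374 to 1782 in ES and 427 to 442 in NS cells. Its members also differed in direction. Lama1, a laminin, fell against ES cells by 0.50 in hNanog iPS (limma adjusted p = 0.033) and by 0.67 in mNanog iPS cells (0.0055). Dab2, an endocytic adaptor, exceeded its ES level at least 2.14-fold in hNanog iPS (7e-07) and 1.34-fold in mNanog iPS cells (1.2e-05), and was not detected in ES cells. Of 4 neuron markers 3 had a probe, and they summed to 116 to 159 over the pluripotent groups, against 5100 to 5356 in NS cells. In NS cells Map2 averaged 12.26, Syp 8.03 and Dcx 5.23, so the linear sum there is mostly Map2. Dcx was detected on 2 NS arrays, overlapped each pluripotent group and was not tested. The part of such cells in the differences of junction genes given here was not tested. The surface epithelium list (4 genes) had 0 genes with a named probe. In these marker lists, a gene with a probe is one for which the platform annotation names a probe. That annotation does not name every probe on the array.

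**Figure D2:**
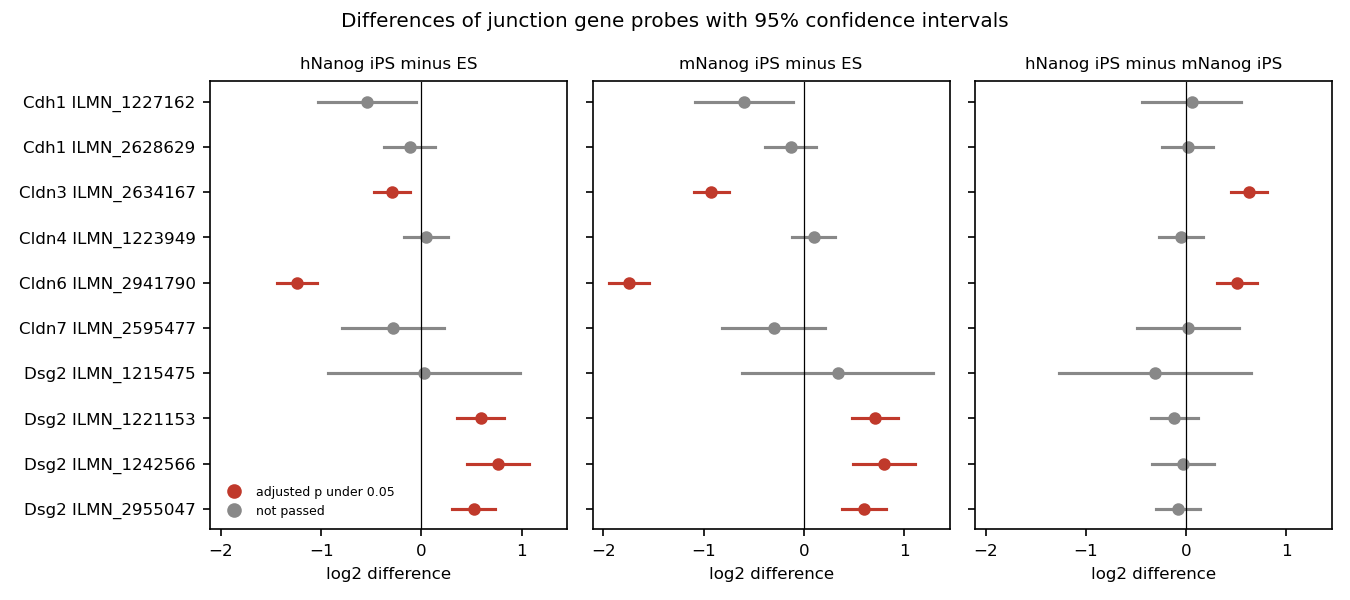
Log2 difference of each tested member probe for hNanog iPS minus ES, mNanog iPS minus ES and hNanog iPS minus mNanog iPS, with 95% intervals; red points passed the test at an adjusted p of 0.05. In both comparisons with ES cells, 3 Dsg2 probes lie right of 0 and Cldn3 and Cldn6 lie left of it, while Cdh1 ILMN_2628629 and Cldn4 have intervals that include 0. The intervals of Cdh1 ILMN_1227162 also lie left of 0 there, though that probe did not pass the test.

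Claudin 7 and N-cadherin gave no usable contrast. Cldn7 averaged 5.47 ± 0.36 in hNanog iPS, 5.46 ± 0.24 in mNanog iPS, 5.76 ± 0.45 in ES and 5.47 ± 0.24 in NS cells, with wide overlap, and its largest difference was -0.30 in mNanog iPS minus ES cells (interval -0.81 to 0.21, limma adjusted p = 0.37). The Cdh2 probe averaged 5.07 ± 0.31 in hNanog iPS, 4.84 ± 0.19 in mNanog iPS, 4.82 ± 0.36 in ES and 5.08 ± 0.27 in NS cells. It was detected on 1 of the 12 arrays, an NS array, and was not tested. This probe is annotated to a cDNA clone, and a reading near background from it does not show that N-cadherin was lacking in NS cells.

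Over all member probes, 8 of 10 were higher and 0 lower in hNanog iPS than in NS cells. Among all 18185 tested probes, 75.3% were called in that comparison, 40.6% higher and 34.7% lower. In mNanog iPS cells 7 were higher, beside 74.8% of all probes called (38.9% higher, 35.9% lower), and Cldn6 passed the threshold but was below background in both groups. In ES cells 9 were higher, beside 75.2% called (40.6% higher, 34.6% lower). Groups did not overlap for 8 of 10 probes in each of these comparisons, against 77.9%, 75.7% and 76.2% of all tested probes, so the share without overlap is near the background. Several members entered the test only through the pluripotent arrays that detected them, so these counts are a description. The median difference of the member probes was 2.69 in hNanog iPS, 2.47 in mNanog iPS and 2.64 in ES minus NS cells, beside 0.12, 0.08 and 0.11 over all tested probes. Without regard to sign, the median size over all tested probes was 0.74, 0.73 and 0.74. Several of the member probes are of 1 gene, Dsg2, and most were detected on no NS array. These medians are a description as well.

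Against ES cells, 3 member probes (all Dsg2) were higher and 2 (Cldn3, Cldn6) lower in hNanog iPS cells, beside 26.1% of all tested probes called (13.7% higher, 12.4% lower). In mNanog iPS cells 3 Dsg2 probes were higher and Cldn3 and Cldn6 lower, beside 32.8% called (15.9% higher, 16.9% lower). Groups did not overlap for 5 probes in either comparison, against 41.9% and 44.3% of all tested probes. In hNanog minus mNanog iPS cells 2 of 10 (Cldn3, Cldn6) were higher and did not overlap and 0 were lower, beside 13.7% called (6.42% higher, 7.3% lower) and 33.1% not overlapping. The median member difference was -0.05 in hNanog iPS minus ES, -0.02 in mNanog iPS minus ES and -0.01 in hNanog minus mNanog iPS cells, beside -0.0040, -0.033 and 0.027 over all tested probes.

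The other genes of the junction pathway, taken from lists, moved in several directions against NS cells. Of 6 other cadherins tested, 6 were lower in each pluripotent group than in NS cells (background 34.7%, 35.9% and 34.6% lower), with median differences of -2.15, -2.11 and -2.16. Most of them were detected in NS cells alone, so they entered the test through the group where they are high. Cdh4 (R-cadherin, known from the nervous system) averaged 6.60 ± 0.08 in hNanog iPS, 8.78 ± 0.06 in mNanog iPS, 5.72 ± 0.06 in ES and 12.34 ± 0.11 in NS cells. Its groups did not overlap, and it stood higher than in ES cells by 0.88 in hNanog iPS (limma adjusted p = 1.4e-05, lost under median scaling at 0.068) and by 3.06 in mNanog iPS cells (2.4e-10). Cdh13 was at least 4.02-fold lower in hNanog iPS, 3.74-fold in mNanog iPS and 3.82-fold in ES than in NS cells. Cdh3, the neighbour of Cdh1, was detected on 2 ES arrays and no others, was not tested, and was chosen after its values were seen.

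Of 5 other claudins tested, 3 were lower in each pluripotent group than in NS cells, with median differences of -1.06, -1.03 and -1.02, beside 34.7%, 35.9% and 34.6% of all tested probes called lower. Cldn10 and Cldn11 entered the test through NS cells, the only group that detected them. Cldn11, known from myelin, averaged 4.35 ± 0.03 in hNanog iPS, 4.31 ± 0.05 in mNanog iPS, 4.32 ± 0.04 in ES and 8.98 ± 0.32 in NS cells. It was at least 10.3-fold lower in mNanog iPS and 10.5-fold lower in ES cells, and passed in hNanog iPS cells too (limma adjusted p of 6.7e-12 or less in each). Cldn10 was at least 1.43-fold, 1.33-fold and 1.36-fold lower, and Cldn12 fell by 1.06, 1.03 and 1.02. Cldn9, the neighbour of Cldn6, passed in ES minus NS cells alone (0.48, adjusted p = 0.049), with groups that overlapped and a call that was lost under 17 of 25 alternatives and turned to -0.012 under median scaling. No other claudin of this list passed in any comparison among pluripotent groups.

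Of 3 other desmosome genes, 2 were higher in hNanog iPS, 2 in mNanog iPS and 3 in ES than in NS cells, and none was lower, beside 40.6%, 38.9% and 40.6% of all tested probes called higher. Pkp3 entered the test only through pluripotent arrays, so the count is a description. Its call was lost under 5 of 25 alternatives in ES minus NS and under 6 in hNanog iPS minus NS. The Pkp4 call in ES minus NS, with groups that overlapped, was lost under 9. Pkp2 (plakophilin 2, which links desmosomal cadherins to desmoplakin) averaged 7.63 ± 0.07 in hNanog iPS, 8.06 ± 0.13 in mNanog iPS, 8.53 ± 0.05 in ES and 5.62 ± 0.18 in NS cells. Unlike Dsg2 it fell against ES cells, by 0.89 in hNanog iPS (limma adjusted p = 5.5e-05) and by 0.47 in mNanog iPS cells (0.0044), and both calls were lost under median scaling. The list of an Epcam relative and membrane proteases was measured through Spint1, St14 and Prss8 alone, none of them an Epcam relative. All 3 were higher in each pluripotent group than in NS cells, beside the same shares of all probes. None of the 3 was detected in NS cells, so they entered the test only through the pluripotent arrays and the count is a description. Spint1, an inhibitor of membrane serine proteases, exceeded its NS level at least 129-fold in hNanog iPS, 144-fold in mNanog iPS and 84.7-fold in ES cells. It read 12.25, 12.24 and 12.22 in hNanog iPS, 12.34, 12.49 and 12.37 in mNanog iPS, and 11.51, 11.65 and 11.73 in ES cells, so every iPS array lay above every ES array. Of all tested probes, 41.9% in hNanog iPS minus ES and 44.3% in mNanog iPS minus ES did not overlap. Spint1 exceeded ES cells by 0.61 in hNanog iPS (limma adjusted p = 0.00032) and by 0.77 in mNanog iPS cells (3.4e-05). Both Spint1 calls were lost under median scaling, and the hNanog iPS call also on dimmer arrays alone. St14 (matriptase, a membrane protease) rose by 0.57 in mNanog iPS (adjusted p = 0.00013) and fell by 0.26 in hNanog iPS cells (0.027) against ES cells. The hNanog iPS call was lost without any 1 hNanog iPS replicate or without ES replicate 3 (-0.28 to -0.0089 over all alternatives), and both calls were lost under median scaling.

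Of 10 catenin and nectin genes, 6 were higher and 2 lower in hNanog iPS, 6 and 3 in mNanog iPS, and 4 and 2 in ES than in NS cells. Of all tested probes, 40.6% were higher and 34.7% lower in hNanog iPS, 38.9% and 35.9% in mNanog iPS, and 40.6% and 34.6% in ES than in NS cells. Ctnnd2, a delta-catenin of neurons, fell by 4.20, 3.92 and 3.55 in those comparisons. Nectin2, an adhesion protein of adherens junctions, rose by 1.42, 1.39 and 1.76. The list medians were 0.35, 0.38 and 0.13. Of 10 other tight junction genes, 5 were higher and 4 lower in hNanog iPS, 5 and 2 in mNanog iPS, and 3 and 3 in ES than in NS cells, with medians of 0.24, 0.17 and -0.17, beside those same shares. F11r (junctional adhesion molecule A) averaged 6.30 ± 0.11 in hNanog iPS, 5.90 ± 0.21 in mNanog iPS, 7.24 ± 0.11 in ES and 4.56 ± 0.08 in NS cells. It fell against ES cells, by 0.94 in hNanog iPS (limma adjusted p = 7.6e-05, lost under median scaling at 0.27) and by 1.34 in mNanog iPS cells (2.5e-06). Pard3, a polarity protein, averaged 5.68 ± 0.13, 7.05 ± 0.04, 4.91 ± 0.11 and 5.31 ± 0.15 in the 4 groups, and exceeded its ES level at least 2.74-fold in mNanog iPS cells (1.8e-08).

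**Figure D3:**
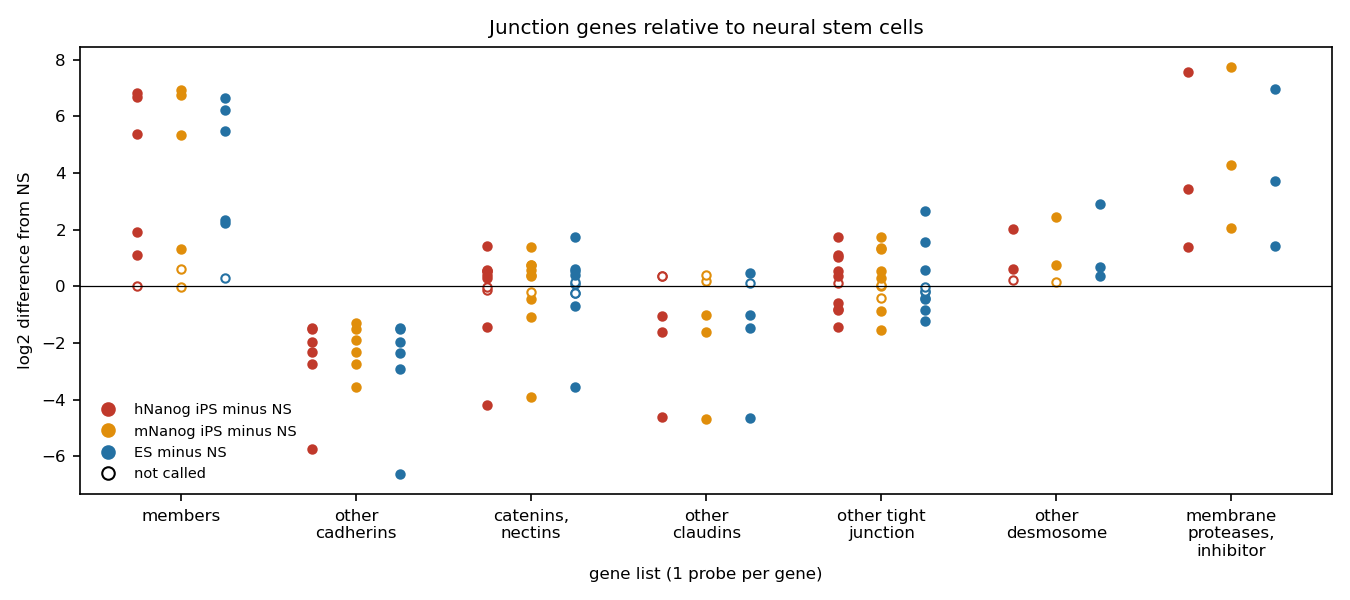
Log2 differences of the tested genes of each junction list against NS cells, for hNanog iPS, mNanog iPS and ES cells; each point is 1 gene, and open points were not called. The other cadherins lie below 0 in all 3 comparisons, while the tested genes of the protease list (Spint1, St14 and Prss8) lie above 0.

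Of 10 known regulators of junction genes, 7 were higher and 2 lower in hNanog iPS, 8 and 2 in mNanog iPS, and 6 and 2 in ES than in NS cells, where the shares of all probes were 40.6% and 34.7%, 38.9% and 35.9%, and 40.6% and 34.6%. Against ES cells, 2 were higher and 2 lower in hNanog iPS (all probes 13.7% and 12.4%), and 3 and 2 in mNanog iPS cells (15.9% and 16.9%). Snai1, Snai2, Grhl2, Grhl3 and Esrp2 entered the test only through pluripotent arrays, and Zeb2 only through NS arrays. The counts against NS cells are therefore a description. Grhl2, a Grainyhead-like activator of epithelial junction genes, read 9.39, 9.43 and 9.42 in hNanog iPS cells. It read 10.43, 10.46 and 10.69 in mNanog iPS cells, 6.35, 6.25 and 6.25 in ES cells, and 4.32, 4.52 and 4.42 in NS cells, where it was not detected. No group overlapped another. Grhl2 rose by 3.13 (SE 0.09) in hNanog iPS (limma adjusted p = 4.8e-10) and by 4.24 (SE 0.09) in mNanog iPS against ES cells (2.6e-11). It was lower by 1.11 in hNanog than in mNanog iPS cells (difference -1.11, adjusted p = 4.6e-06), a call lost under median scaling (0.37). Grhl3, another Grainyhead-like factor, fell against ES cells, by 0.43 in hNanog iPS (0.0049) and by 0.42 in mNanog iPS cells (0.0047), and both calls were lost under median scaling and within each kind of array.

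The Zeb repressors were highest in NS cells. Zeb1 averaged 8.78 ± 0.16 in hNanog iPS, 8.85 ± 0.09 in mNanog iPS, 8.48 ± 0.17 in ES and 12.60 ± 0.10 in NS cells, and fell against NS cells by 3.82, 3.75 and 4.12 (limma adjusted p of 1.4e-11 or less). Zeb2 was detected in NS cells alone and was at least 3.08-fold lower in ES cells. Snai1, a Snail family repressor, ran the other way, at 7.95, 8.06 and 8.12 in hNanog iPS and 7.92, 7.85 and 7.59 in mNanog iPS cells. ES cells read 6.60, 6.66 and 7.07, and NS cells 5.05, 4.87 and 4.49. It rose by 1.26 in hNanog iPS (adjusted p = 0.00011) and by 1.01 in mNanog iPS cells (0.00043) against ES cells, with no overlap, and the mNanog iPS call was lost under median scaling (0.062). Esrp2, an epithelial splicing factor, fell by 0.64 in hNanog iPS against ES cells (0.00086), a call lost under median scaling and on dimmer arrays alone.

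**Figure D4:**
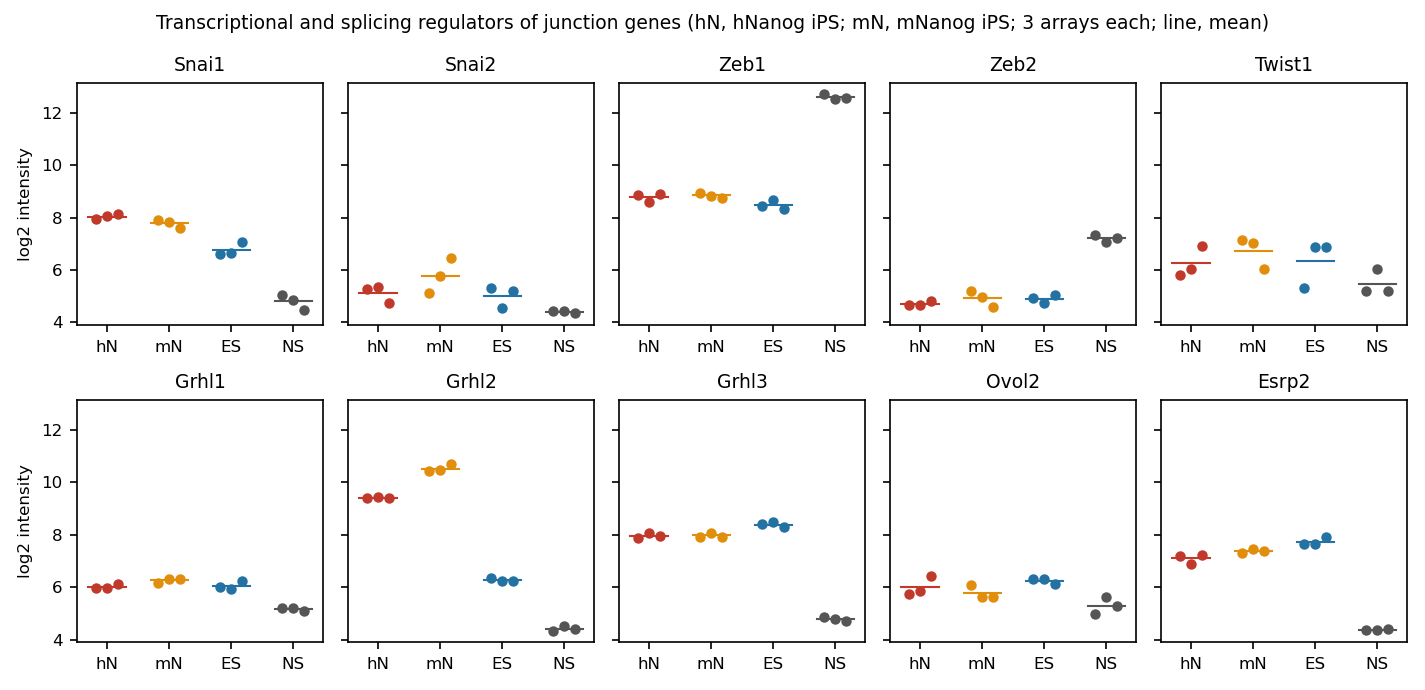
Normalized log2 intensity of regulators of junction genes on each array, with hNanog iPS, mNanog iPS, ES and NS from left to right. Grhl2 stands at 9.39 or more in both iPS groups and at 6.35 or less in ES cells, and Zeb1 stands highest in NS cells.

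The genes whose pattern over the 12 arrays lay nearest to Cdh1, after each was centred on its own mean, were Osm (root mean square difference 0.155 on the log2 scale), Zscan10 (0.156) and Trim25 (0.198), among 10042 genes with a median of 2.32. For Cdh2, whose probe was near background, the nearest were Rrp1 (0.106), Leng1 (0.152) and Lig4 (0.168), among 10043 genes with a median of 0.51. The 12 arrays share 4 group means, and the likeness is a description without a test.

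Array brightness touched 2 member probes. Of all tested probes, 13.5% differed between dimmer and brighter arrays in a fit with the groups, and of the 10 member probes Dsg2 ILMN_1215475 and Cdh1 ILMN_1227162, both dim, did so. The other 8, among them the main Cdh1 probe, Cldn3, Cldn4 and Cldn6, did not pass (differences from -0.19 to 0.30).

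**Figure D5:**
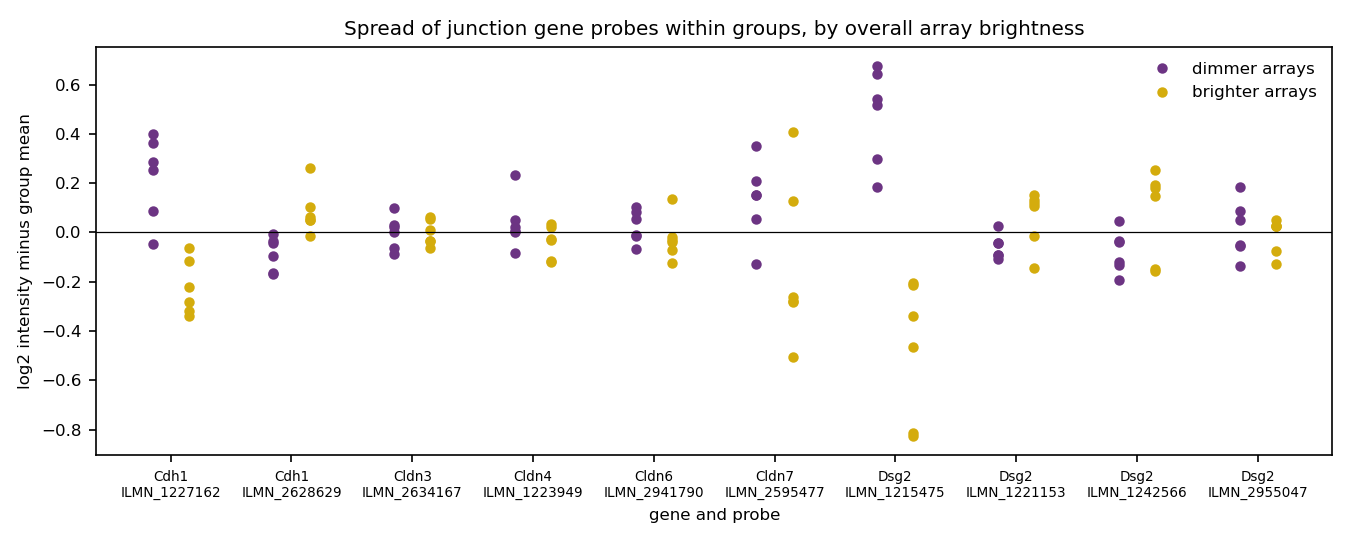
Log2 intensity of each tested member probe on each array minus the mean of its group, with the 6 dimmer arrays and the 6 brighter arrays side by side. For Dsg2 ILMN_1215475 every dimmer array lies above every brighter one, and the dimmer arrays of Cdh1 ILMN_1227162 also sit higher.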

How the data were processed

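RNA amplification and biotin labelling used a kit for Illumina arrays, per the labels' protocols. The authors deposited, for 45281 probes, a linear intensity that is not normalized and a detection p-value. They also deposited a processed table of 20513 probes in which the log base is unstated (read here as log2). Background correction (from detection p-values), an offset of 16 and quantile normalization were done by neqc of limma 3.58.1 in R 4.3.3. Tested probes (18185, with 10043 named genes) had a detection p-value below 0.01 on 3 or more of the 12 arrays. A model with 4 group means was fitted with lmFit and eBayes, and p-values were adjusted by Benjamini-Hochberg over all tested probes (threshold 0.05). The fit was tested on simulated data. Precision is limited by the number of replicates.

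Gene names come from the platform annotation, which lists 17492 of the processed table's probes (17484 with 1 symbol, 8 with several). The genes, lists and tests were chosen with earlier results of these data known. All member probes are named. Of each other junction list, at most 4 genes per comparison are named, ranked by the size of the change among those past the threshold. For Cdh1 and Cdh2 the 3 nearest patterns are named. For a list gene with several probes, the one of highest mean was used. Genes past the threshold but not above background in either group were not counted as higher or lower. Promoter windows are from RefSeq, GRCm38.p6. Alternatives covered background correction, scaling, filters, the authors' processed values, blocks, brightness and each replicate left out.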

Additional observations from a re-analysis of the deposited data

How the results depend on the processing

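With 3 arrays a group and dim probes near background, small differences are not resolved. There were 1500 alternative values for the member probes (60 results under 25 alternatives each). Of these, 1446 kept their side of the threshold, 41 lost the call, 13 gained one and 0 reversed past the threshold. In a separate count, the sign of the difference changed in 41 values. Median scaling, which shifts the median of all probes (hNanog iPS minus NS -0.04, mNanog iPS minus NS -0.32, ES minus NS -0.24, hNanog iPS minus ES 0.17, hNanog minus mNanog iPS 0.25), moved most counts, and the cause was not tested. It left 8870 probes changed in hNanog iPS minus NS (3785 higher, 5085 lower, against 7380 and 6315), 9128 in mNanog iPS minus NS (2769 and 6359, against 7079 and 6527), 8788 in ES minus NS (2856 and 5932, against 7382 and 6289), 730 in hNanog iPS minus ES (555 and 175, against 2500 and 2252), 927 in mNanog iPS minus ES (605 and 322, against 2899 and 3069) and 311 in hNanog minus mNanog iPS (125 and 186, against 1168 and 1327). It left 1 member probe changed in hNanog iPS minus ES, 1 in mNanog iPS minus ES and 0 in hNanog minus mNanog iPS. Within 1 kind of array, where a group can hold 1 array that is assumed to vary like the others, hNanog iPS minus ES gave 1402 probes on dimmer arrays alone, and 3 and 2 member probes on brighter and dimmer arrays. mNanog iPS minus ES gave 3849 probes on brighter arrays, from 1 array against 1 with the spread taken from the other groups, and 3800 on dimmer arrays. hNanog minus mNanog iPS gave 533 probes on dimmer arrays, and 1 and 0 member probes on brighter and dimmer arrays. The same comparison had 1 member probe changed without background correction, with cyclic loess and with the authors' processed values. Leaving out 1 replicate gave 13086 to 13759, 12947 to 13651, 12970 to 13712, 3587 to 5014, 4949 to 6333 and 1737 to 2732 probes in the 6 comparisons (members 7 to 9, 8 to 8, 8 to 10, 4 to 6, 5 to 6 and 2 to 2). Arrays of different groups were correlated after the group mean of each probe was subtracted. Same-numbered arrays then had a median correlation of -0.17 over 18 pairs, and 3 of 12 arrays correlated best with their own number. The numbers were therefore not taken as pairing the samples. With the replicate block, 13506, 13414, 13451, 4251, 5516 and 2095 probes changed (members 7, 8, 8, 5, 5 and 2), and Dsg2 ILMN_1215475 lost its call in hNanog iPS minus NS (limma adjusted p = 0.053) and ES minus NS (0.058). With array brightness as a block, 14348, 14176, 14226, 5397, 7179 and 3055 probes changed (members 9, 8, 9, 6, 6 and 2), and Cdh1 ILMN_1227162 gained 3 calls. By the same correlations between groups, arrays of like brightness had a median of 0.30 over 26 pairs, with 25 over 0.1. Of 117 values named for genes of the other junction lists, 75 kept their call under every alternative run and 42 lost it under at least 1, and Cldn9 in ES minus NS was -0.012 under median scaling. These alternatives for the other lists were added after seeing the data.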
